A study of Mus musculus with 8 samples.

Results

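The 4 Hox gene clusters were examined for H3K27ac, histone H3 acetylated at lysine 27, in crypts of the mouse small intestine. The clusters were taken as fixed windows of build mm9, HoxA at chr6:52100000-52215000 (115 kb), HoxB at chr11:96050000-96235000 (185 kb), HoxC at chr15:102745000-102875000 (130 kb) and HoxD at chr2:74500000-74610000 (110 kb). Together they span 540 kb and stand for 38 Hox genes, 10 in HoxA, 10 in HoxB, 9 in HoxC and 9 in HoxD. Every peak that touched a window was taken, whatever its score. The fed libraries, called fed 1 and fed 4 by their replicate numbers, had 27640 and 15504 peaks, and the fasted libraries, fasted 2 and fasted 5, had 37974 and 35917. Of these, 1 peak lay in a window, and it belonged to fasted 5.

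Crypts, the pits of the gut lining that hold its stem cells, came from mice 6 to 12 weeks old, male and female, that ate freely or went without food for 24 h with water at hand. The strains named are C57BL/6J and Lgr5EGFP-IRES-CreERT2/+ (B6.129P2-Lgr5tm1(cre/ERT2)Cle/J), and the labels do not say which of them gave a given library. Both groups shared trichostatin A, a histone deacetylase inhibitor, at 100 nM in the solutions used during isolation. Each of the 2 fed and 2 fasted libraries pooled crypts of 4 animals. Values per library are given below in the order fed 1, fed 4, fasted 2, fasted 5 unless a library is named, and the 4 input libraries were not used here. Crypts hold stem, progenitor and Paneth cells, so a peak cannot be placed in 1 of these types, and the labelled tissue was not checked against marker genes because no gene positions of mm9 were at hand.

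Hox genes encode homeodomain transcription factors that set the position of tissues along the body axis, the gut included. Within a cluster the genes lie in the order of their paralogue numbers. Genes with low numbers act towards the head and those of paralogue group 13 towards the tail, where Hoxa13 and Hoxd13 pattern the hindgut. Where Hox genes are silent, their clusters are a textbook target of Polycomb complexes, which methylate the lysine that acetylation marks in active chromatin. The ends of the windows are named by the outermost listed gene, from the gene order in a GRCm38 table: Hoxa2 and Hoxa13, Hoxb13 and Hoxb1, Hoxc13 and Hoxc4, and Hoxd13 and Hoxd1, in the direction of rising coordinates. Peaks were not assigned to single genes.

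The clusters also hold microRNA genes of the miR-10 and miR-196 families, which are known to repress Hox transcripts. In the same table Mir10a lies next to Hoxb4, Mir196a-1 between Hoxb13 and Hoxb9, Mir196a-2 between Hoxc10 and Hoxc9, Mir196b between Hoxa9 and Hoxa10, and Mir10b inside the HoxD cluster. Their mature sequences (RefSeq, GRCm38.p6) are shown as products of the clusters, and no microRNA gene was placed against the peaks, whose build differs; capitals mark the seed, bases 2 to 8 from the 5′ end, which is shared within each family.
miR-10a-5p: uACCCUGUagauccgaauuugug
miR-10b-5p: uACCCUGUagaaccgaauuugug
miR-196a-5p: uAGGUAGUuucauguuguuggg
miR-196b-5p: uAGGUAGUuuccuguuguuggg

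No peak was found in the HoxB, HoxC or HoxD window in any library of either feeding state. These windows stand for 28 of the listed genes, from Hoxb1 to Hoxd13. That the windows hold these genes was taken from the definition of the windows and not checked against an mm9 annotation. The HoxA window had a single peak, in fasted 5. Of 16 combinations of window and library, 15 held none. The covered share, the percent of window bases under a peak, was 0% in fed 1, fed 4 and fasted 2 and 0.634% in fasted 5 for HoxA, and 0% in all 4 libraries for the other windows. Over the 540 kb together, peaks covered 0% in 3 libraries and 0.135% (729 bp) in fasted 5. The same libraries had 2.03, 0.913, 4.11 and 4.50% of the autosomes under a peak, counted from the first to the last peak of each chromosome. The peaks are numbered by name in each deposited list, and 0 numbers were missing.

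**Figure D1:**
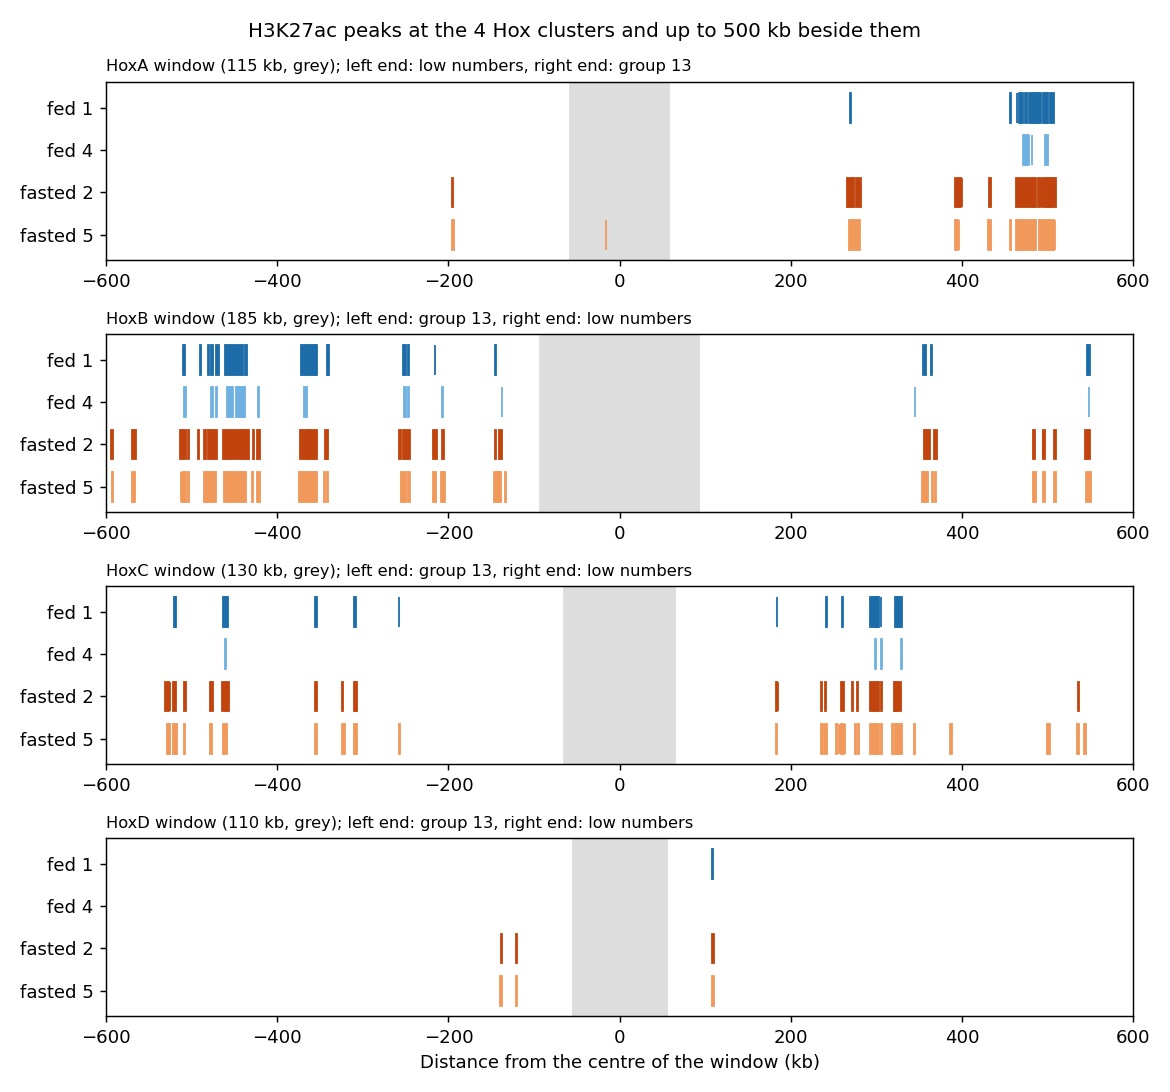
Peaks of each library (rows) against distance from the window centre in kb, for the HoxA, HoxB, HoxC and HoxD windows (grey) and 500 kb on either side; every peak is drawn with an outline, so narrow peaks look slightly wider than they are. The single mark inside a grey band is the 729 bp HoxA peak of fasted 5, and the nearest peak outside any window begins 40.3 kb from the edge of HoxB.

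The HoxA peak of fasted 5 lay at chr6:52141030-52141758, 41.0 kb from the low edge and 36.0% of the way from the Hoxa2 end to the Hoxa13 end. It was 729 bp wide, narrower than most of its list (width percentile 4.5), and its score of 83.39, the authors' own value, stood at percentile 20.8 of that list. The previous peak of fasted 5 was 177.4 kb away and the next 283.8 kb, so the peak stood alone. No other library had a peak that overlapped it. Regions found in fasted 5 only were common: 8236 of the 43091 regions made by merging the 4 lists (19.1%) were of this kind. Their median score was 85.1 and their median width 1077.0 bp. Of these regions, 48.6% scored lower than the HoxA peak and 12.7% were narrower. The peak therefore ranked near the middle of such regions by score.

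Fasting was compared with feeding over the libraries. For HoxA the covered share was 0% in both fed libraries and 0.317 ± 0.448% in the fasted ones (mean ± SD, n = 2), a difference of 0.317 points with p = 1.0 in a two-sided exact permutation test. The smallest p this design allows is 0.33. With a value other than 0 in only 1 library, every regrouping gave the same size of difference, so the test could not decide. The feeding states overlapped, since fasted 2 had the same value as both fed libraries. For HoxB, HoxC and HoxD the difference was 0 points (exact permutation p = 1.0, n = 2 for each). All values there were 0, so these tests could not decide either. The file names carry a number that may mark a batch, 10 for fed 1 and fasted 2 and 11 for fed 4 and fasted 5. Within the number 10 the HoxA difference was 0 points, and within the number 11 it was 0.634 points.

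The 1 region in the windows belonged to neither of the classes that separate the feeding states. Of the 43091 regions, 19.3% were found in the fasted libraries alone, in both of them, and 0.297% likewise in the fed libraries alone, against 0 regions of each class in the windows. Both fasted libraries covered more bases than both fed ones at 49.4% of all regions and at 0 of 1 in the windows. A single region does not allow a share to be compared with these backgrounds.

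The clusters could hardly be told apart by their peaks. The mean difference in covered share from HoxA was -0.158 points for HoxB, for HoxC and for HoxD over the 4 libraries, and it came from 1 of 4 libraries. The 6 pairs of windows each gave p = 1.0 in a two-sided exact sign-flip permutation test and an adjusted p of 1.0 (Benjamini-Hochberg over the 6 pairs). The smallest p this test allows is 0.125, when all 4 libraries differ in the same direction. Here at most 1 library differed in a pair, so every sign flip gave the same size of difference. The test could therefore not decide whether the windows differ. Along the clusters, the only peak lay between the middle of HoxA and its Hoxa2 end. From the middle of each window to its group 13 end, 0% was covered in every library. With 1 peak, no trend along the paralogue order can be described.

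Windows of these lengths were often without peaks elsewhere too. When the autosomes were laid out in tiles of 185 kb, the length of the HoxB window, 52.2% of 12967 tiles had no peak in any of the 4 libraries. The share was 57.6% for 130 kb tiles, the length of HoxC, and 60.2% for 110 kb tiles, the length of HoxD. For HoxA, 63.6% of 115 kb tiles had no peak in fed 1, fed 4 and fasted 2. An empty window is thus the more frequent state for sequence of this length. On chromosome 11, which had the highest covered share of these 4 chromosomes (3.95, 1.85, 7.64 and 7.94%), 252 of 641 tiles of 185 kb (39.3%) were empty in all libraries. The tiles take in gene-poor sequence, whereas each window holds 9 or 10 listed genes. A comparison with windows of similar gene content was not made because it needs gene positions of the same build.

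The windows lay inside long stretches without peaks. In single libraries the stretches that held a whole window were 227.6 to 1744.8 kb long, and 1.92 to 6.16% of the autosomal stretches between peaks of the same library were as long or longer. By length these few stretches held much of the genome, 49.6 to 74.4% of the autosomal bases from the first to the last peak of each chromosome, so in all but 1 of the 15 cases most of those bases lay in stretches this long. The median stretch was 3.4, 7.6, 2.5 and 6.0 kb. Fed 4, the list with the fewest peaks, had the longest stretch at HoxA, HoxC and HoxD.

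HoxB had the most even stretch, with 499.5, 481.7, 492.2 and 485.9 kb. All 4 libraries thus gave nearly the same length although their lists differ in size. The peaks that bounded it were not the same regions in all of them. With the peaks of all libraries together, 477.5 kb around HoxB were free of peaks, and 43 of 3340 stretches of chromosome 11 were as long. Those 43 held 43.0% of its bases.

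HoxC lay in stretches of 440.7, 758.7, 489.2 and 439.9 kb. Fed 4 stood apart with the longest. Over all libraries 439.8 kb were free, a length reached by 39 of 1614 stretches of chromosome 15, which held 60.8% of its bases.

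HoxD lay in stretches of 871.8, 1744.8, 228.5 and 227.6 kb. The fed stretches were longer than the fasted ones, which differed by less than 1 kb. The fed lists also held fewer peaks as a whole, so list length and feeding state cannot be told apart here. Over all libraries 227.6 kb were free, and 142 of 3194 stretches of chromosome 2 were as long and held 63.3% of its bases.

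HoxA lay in stretches of 1005.8, 1129.3 and 460.4 kb in the first 3 libraries. In fasted 5 the single peak divided it into stretches of 177.4 and 283.8 kb. Without fasted 5, the stretch free in the remaining libraries was 460.4 kb.

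**Figure D2:**
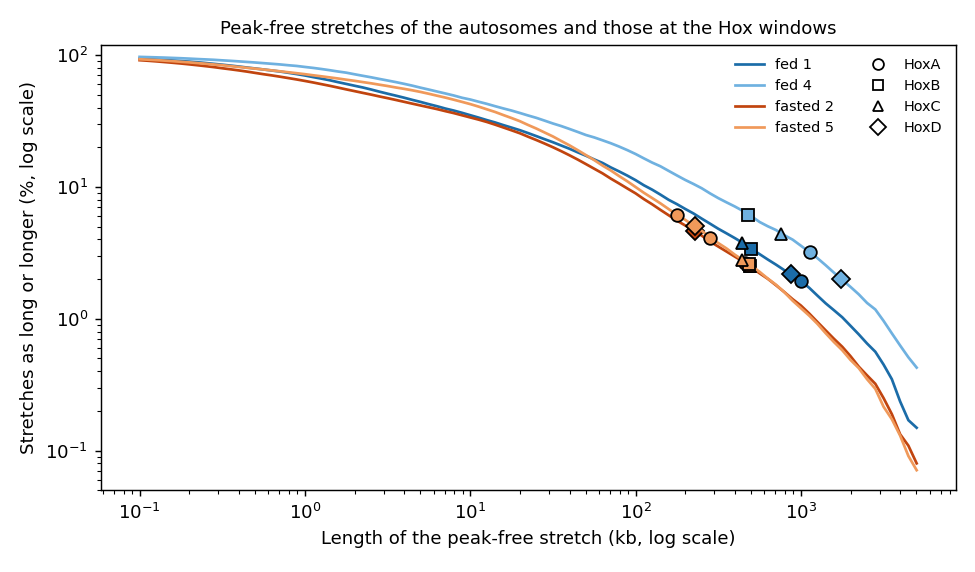
Percent of autosomal peak-free stretches that are at least as long as the length on the x axis (both axes logarithmic), as 1 line per library, with symbols for the stretches that hold or, for HoxA in fasted 5, adjoin the Hox windows. The symbols sit between 177.4 and 1744.8 kb on the x axis and between 1.92 and 6.16% on the y axis.

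The peaks that bound these stretches show where called peaks resumed beside each cluster. Next to HoxB they resumed first on the Hoxb13 side. The nearest peak there was 52.0, 44.4, 44.6 and 40.3 kb from the window. On the Hoxb1 side the distances were 262.5, 252.3, 262.6 and 260.6 kb. In all 4 libraries the Hoxb13 side was thus the nearer. The peaks nearest on that side were weak in their lists, at score percentiles 12.8, 30.7, 17.5 and 13.1. The first region on the Hoxb13 side was found in fasted 5 only. That on the Hoxb1 side was found in fed 4 only (percentile 8.7).

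Next to HoxD the nearest region lay on the Hoxd1 side, at chr2:74663301-74665052 and 53.3 kb from the window. It had a peak in fed 1 (percentile 21.6), fasted 2 (46.7) and fasted 5 (64.9) and none in fed 4, whose next peak on that side was 884.9 kb away. On the Hoxd13 side the first region, chr2:74433433-74435673, was 64.3 kb away and had peaks in fasted 2 (percentile 33.3) and fasted 5 (49.7) only. The fed libraries, whose lists held fewer peaks as a whole, had no peak on that side for 708.5 kb (fed 1) and 749.9 kb (fed 4).

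Next to HoxC the nearest region lay on the Hoxc4 side, at chr15:102992723-102994386 and 117.7 kb away. It was found in fed 1 (percentile 29.0), fasted 2 (45.2) and fasted 5 (41.3). In fed 4 the next peak on this side was 233.3 kb away. On the Hoxc13 side the first region was 192.1 kb away and had peaks in fed 1 and fasted 5.

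Next to HoxA the nearest region lay on the Hoxa2 side, at chr6:51961529-51963611, 136.4 kb away, with peaks in fasted 2 (percentile 45.6) and fasted 5 (47.1). The fed libraries, whose lists held fewer peaks as a whole, had no peak on this side for 679.7 kb (fed 1) and 600.2 kb (fed 4). On the Hoxa13 side the nearest peak was at 211.1, 414.1, 208.6 and 210.5 kb, again farthest in fed 4.

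Of the 8 sides of the windows, 0 had a first region that was found in all 4 libraries. That region had a peak in 3 libraries on 2 sides, in 2 libraries on 3 sides and in 1 library on 3 sides. Of all 43091 regions, 16.1% were found in 4 libraries, 18.3% in 3, 24.1% in 2 and 41.5% in 1, so with 8 sides the counts are near these shares. The closest region found in all libraries was 152.5 kb from HoxB on the Hoxb13 side (chr11:95895055-95897499), 231.8 kb from HoxC on the Hoxc4 side, 405.9 kb from HoxA on the Hoxa13 side and 749.5 kb from HoxD on the Hoxd13 side.

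The surroundings of the clusters differed. Within 500 kb of HoxB, peaks covered 5.78, 3.23, 11.7 and 12.0% of bases, which in each library was above its autosomal share. Around HoxD they covered 0.0990, 0, 0.457 and 0.604%, in each library below its autosomal share. HoxA had 2.87, 0.750, 5.92 and 5.85%, and HoxC had 2.77, 0.468, 5.52 and 7.48%. These shares take both sides of a window together. Most of the peaks around HoxB lay on the Hoxb13 side in each library. On the Hoxb1 side the nearest peak was 252.3 kb or more away. The HoxB window was therefore empty beside a neighbourhood rich in peaks, mainly on its Hoxb13 side. The HoxD window was empty within a neighbourhood that was poor in them. Within 100 kb, peaks covered 0.667, 0.472, 1.81 and 4.29% around HoxB and 0.495, 0, 2.28 and 3.02% around HoxD. Both were below the autosomal share in each library.

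Pooled over the 4 clusters and both sides, the covered share was low beside the windows and higher farther away. HoxA, HoxB and, up to 300 kb, HoxC carried this pattern, though not evenly on both sides. Within 50 kb of the edges the pooled share was 0, 0.236, 0.631 and 1.24%, all of it beside HoxB. At 300 to 500 kb it was 4.15, 1.84, 8.58 and 8.76%. The pooled share at 300 to 500 kb was above the autosomal share in every library, and the share within 50 kb was below it. HoxA itself had 6.89, 1.88, 11.5 and 11.3% at 300 to 500 kb and HoxB 8.21, 5.22, 17.6 and 17.0%. The HoxA peaks at that distance all lay on the Hoxa13 side, and most of the HoxB peaks on the Hoxb13 side. HoxC had 0% within 100 kb in every library. Most of its peaks at 200 to 300 kb lay on the Hoxc4 side. The HoxC share was highest at 200 to 300 kb (9.05, 1.83, 13.3 and 16.7%) and lower at 300 to 500 kb (1.5, 0.254, 5.30 and 6.72%). HoxD went the other way, with 0.990, 0, 4.57 and 6.04% at 50 to 100 kb and 0% in every library from 100 to 500 kb. The fasted libraries covered more than the fed ones in the whole 500 kb, with 6.20 ± 0.408% against 2.00 ± 1.25% (mean ± SD, n = 2; two-sided exact permutation p = 0.33). This order is also that of the lists as a whole, and list length and feeding state cannot be told apart in it.

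**Figure D3:**
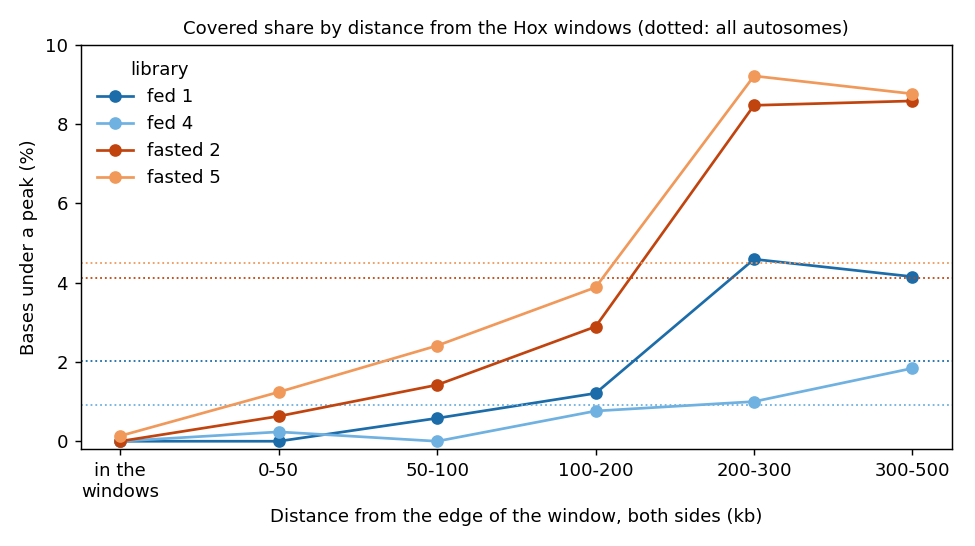
Percent of bases under a peak (y axis) inside the 4 Hox windows and at growing distance from their edges in kb (x axis). Values are pooled over the clusters and both sides, 1 line per library, with the autosomal share of the same library dotted. All lines start at 0 to 0.135% inside the windows and reach 1.84 to 8.76% at 300 to 500 kb.

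Start sites of Hox genes are known for their CpG-rich sequence, the usual setting of promoters that carry this mark when active. Promoter sequences were at hand for 22 of the 38 genes (9 in HoxA, 3 in HoxB, 1 in HoxC and 9 in HoxD; RefSeq, GRCm38.p6). In the 250 bases before the start site, the observed over expected number of CpG dinucleotides ranged from 0.16 (Hoxd11) to 1.11 (Hoxa5), with a median of 0.60. The median over the first listed promoter of 27025 genes was 0.38. A value of 0.6 or more was reached by 11 of the 22 Hox promoters (50.0%) and by 34.5% of all genes of the table. At least 10 CpG dinucleotides were present in 13 Hox promoters (59.1%) and in 38.2% of all. Hoxa13 had 35, Hoxd13 31 and Hoxa5 28, while Hoxd11 had 2 and Hoxa9 and Hoxd4 had 3 each. By count, the group 13 genes of HoxA and HoxD were thus the highest of their clusters among the genes in the table. By observed over expected CpG, Hoxd13 (0.90) was again the highest of HoxD, but Hoxa13 (0.88) was below Hoxa5 (1.11) and Hoxa6 (0.93). These values describe sequence; they were not joined to the peaks, whose build differs.

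**Figure D4:**
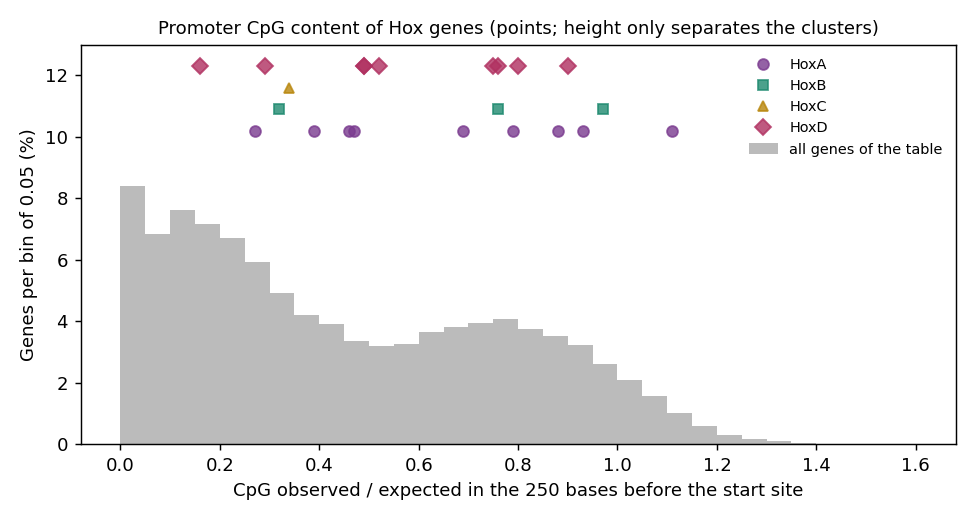
Observed over expected CpG in the 250 bases before the start site (x axis): grey bars give the percent of 27025 genes in each bin, and each point is 1 of 22 Hox promoters, set at a height that only separates the clusters. The Hox points spread from 0.16 to 1.11.

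One promoter of each cluster is shown as an example of the sequence that the clusters hold, namely that of the gene whose CpG count was nearest the median of its cluster; capitals mark CG dinucleotides. Each is the 250 bases before the start site, 5′ to 3′ on the strand of the gene, with its GRCm38.p6 position, which is not comparable with the mm9 positions above. Hoxa11 had 13 CpG, Hoxb8 and Hoxd3 had 12 each, and Hoxc4 had 8. The median covers genes with a sequence at hand, which in HoxB were 3 and in HoxC only 1, Hoxc4 itself.
Hoxa11, chr6:52245811-52246060, minus strand: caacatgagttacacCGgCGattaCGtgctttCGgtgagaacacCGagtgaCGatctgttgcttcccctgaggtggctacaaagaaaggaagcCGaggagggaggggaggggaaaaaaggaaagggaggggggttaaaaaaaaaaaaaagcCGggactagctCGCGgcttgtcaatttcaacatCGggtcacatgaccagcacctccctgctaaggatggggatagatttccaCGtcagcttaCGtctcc
Hoxb8, chr11:96281655-96281904, plus strand: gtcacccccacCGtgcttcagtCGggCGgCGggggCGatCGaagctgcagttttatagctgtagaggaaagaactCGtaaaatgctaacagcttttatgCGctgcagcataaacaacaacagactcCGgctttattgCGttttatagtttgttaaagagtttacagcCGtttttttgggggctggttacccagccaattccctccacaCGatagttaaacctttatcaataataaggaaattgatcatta
Hoxc4, chr15:103034145-103034394, plus strand: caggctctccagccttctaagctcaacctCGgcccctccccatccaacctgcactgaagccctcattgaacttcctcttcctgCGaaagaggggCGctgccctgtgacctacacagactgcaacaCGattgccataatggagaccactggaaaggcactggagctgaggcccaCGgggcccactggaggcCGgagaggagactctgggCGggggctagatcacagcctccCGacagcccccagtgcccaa
Hoxd3, chr2:74711743-74711992, plus strand: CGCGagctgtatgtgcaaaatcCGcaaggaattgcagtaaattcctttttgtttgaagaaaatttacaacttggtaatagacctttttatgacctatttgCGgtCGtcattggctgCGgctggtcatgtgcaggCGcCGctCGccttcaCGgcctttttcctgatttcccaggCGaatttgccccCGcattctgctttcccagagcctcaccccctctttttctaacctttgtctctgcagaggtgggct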

How the data were processed

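H3K27ac ChIP-seq of crypt pools was deposited as 1 peak list per library. The build was mm9, and the tools named are deepTools 1.5.11, SAMtools 1.9, Bowtie 1.1.2 and FastQC, all per the submitters' processing notes, which carry no settings. Per the file names, MACS was run without a shifting model, on a pair of libraries whose roles they do not state; the exact MACS version was not named there. Each peak carries a score, as deposited by the authors, on a scale that is not stated. Its minimum was 50.0 to 50.01 in each list. Regions that scored lower are therefore absent, and acetylation there was not measured. Read depth is unknown, and no interval that needs it is given.

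The members, windows, tests and alternatives were chosen with earlier results of these data known. Peaks touching a window by 1 bp or more were counted and clipped to it for covered bases. Peaks of the 4 lists were merged into regions where they overlapped by 1 bp or more. A score percentile counts the peaks of the list that scored no higher. Stretches are gaps between neighbouring peaks on the 19 autosomes, and tiles were laid from the first peak of a chromosome. The tiles, stretches, distances and promoter comparison were added after the peaks of the windows had been seen. Libraries were compared by exact permutation (Python 3.11.15, NumPy 2.4.6, pandas 2.3.3). The count of covered bases was checked on simulated intervals, and the permutation functions on fixed inputs with a known answer. The replicates were separate pools, per the labels. The rule for naming was to give every region of a window that held 3 or fewer, and to name genes as members of a window. The median score percentile could not be compared, since 1 library had a peak. Coordinates count from 1 and were not converted between builds.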

Additional observations from a re-analysis of the deposited data

How the results depend on the processing

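The values other than 0 inside the windows rest on 1 peak, in fasted 5. It was lost at a score of 100 or more, at 200 or more, with 15504 top-scoring peaks from each library, with the top 21.9 Mb of each list, and without fasted 5. Under each of these settings the HoxA and overall differences in covered share, the difference in peak number, in the share of list bases and between the sides of the windows, the differences of the other windows from HoxA, and the number of regions in the windows were 0. The difference between the outer parts of the windows, with the middle part left out, was also 0, because the peak lies in the middle part. With windows 10 kb narrower or 20 kb wider the same single peak was found. HoxB, HoxC and HoxD had 0 peaks under every setting run.

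Leaving out each library in turn, the fasted-minus-fed covered share ranged from 0 to 0.634 points for HoxA and from 0 to 0.135 points overall (as reported 0.0675), the difference in peak number from 0 to 1.00 (0.500), and that in window bases per 1000 covered bases of a list from 0 to 0.00668 (0.00334). The covered share of the group 13 side minus that of the other side was averaged over the 4 windows. Its fasted-minus-fed difference ranged from -0.317 to 0 points (-0.158). The covered share of HoxB, HoxC or HoxD minus that of HoxA, a mean over the libraries, ranged from -0.211 to 0 points. The number of regions ranged from 0 to 1.00, and the number covered more in every fasted than in every fed library from 0 to 1.00, the latter without fasted 2. No p fell below 0.33, so no call could be lost.

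Tiles shifted by 50% of their width, an alternative chosen after seeing the data, gave 59.5% (115 kb), 52.5% (185 kb), 57.9% (130 kb) and 60.3% (110 kb) without a peak in any library, against 59.6, 52.2, 57.6 and 60.2% as laid. At scores of 100 or more the stretch around HoxA grew from 281.9 to 461.2 kb and that around HoxB from 477.5 to 493.8 kb. Ties at the lower edge of a score, weighting by bases and merging across gaps of 1000 bp could not change a count of 1 peak; the first 2 gave no comparison. The fed and fasted libraries share no replicate number. With the number in the file names as a replicate block instead, chosen after seeing the data, the HoxA difference was 0.317 points (exact sign-flip permutation p = 1.0, smallest possible 0.50), and no call changed. Only 1 block held a difference, so this test could not decide.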
